A study of Mus musculus with 12 samples.

Results

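The 36 genes described here encode mitotic cyclins and kinases, spindle checkpoint and kinetochore proteins, kinesins and cytokinesis factors. They were given as a list of symbols, not by a rule on the measured levels, although earlier results of these data were known at the choice. All 36 matched 1 gene each among the 55536 genes of the count table. Their levels were measured in megakaryocytes (MKs), the platelet-forming cells, sorted from the bone marrow (BM) and spleen of Pf4-TdTomato mice on day 5 after saline or after sepsis induced by injection of cecal slurry. The 4 groups (saline and sepsis from BM, saline and sepsis from spleen) had 3 libraries each, and each library was made from 300 CD45+ lineage- Tomato+ CD41+ CD42b+ cells. All groups were on the C57BL/6 background and carried the same reporter, in which Cre driven by the Pf4 promoter switches on tdTomato, so the label marks cells with present or past Pf4 promoter activity. Male and female mice of 8 to 12 weeks were used. By the study's account the replicates of a group were independent mice, and whether a BM and a splenic library came from the same mouse is not given in the sources used here.

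Entry into mitosis is driven by CDK1 bound to cyclin A or cyclin B. Polo-like and Aurora kinases then build the spindle, the spindle checkpoint holds back the anaphase-promoting complex (APC/C) until the kinetochores are attached, and the central spindle directs cytokinesis through the exchange factor Ect2 and RhoA. MK progenitors divide in this way, whereas maturing MKs become polyploid by endomitosis, in which cells enter mitosis with a spindle but fail to complete cytokinesis. Most of these transcripts are switched on together late in the cell cycle, and the promoters of such genes are known for CCAAT boxes, bound by NF-Y, and for the cell cycle homology region (CHR), bound by MuvB complexes.

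The promoters carried these letters often. In RefSeq windows of 300 bases (250 before to 50 after a transcript start, GRCm38.p6), available for 30 of the 36 genes, CCAAT on either strand was found in 22 genes (73.3%, against 37.4% of 32851 windows of all genes). The CHR letters TTTGAA were found in 22 of the 30 genes (73.3% against 17.9%), the variant TTTAAA, which reads the same on both strands, in 9 (30% against 13.2%), and CCAAT together with either CHR form in 21 (70.0% against 10.7%). At least 2 CCAAT boxes were found in 15 genes (50% against 11.7%), and of 89 matches in all, 71 began within 120 bases before the start or after it. In 2 places matches shared letters, a pair of CCAAT boxes in Ube2c and a CHR with a CCAAT box in Cdca8. Ccna2, Cdc25c, Tpx2, Aurkb, Incenp and Kif20a had no window. Mad2l1, Pttg1, Nuf2 and Nusap1 had neither motif in the window. The windows of 6 genes are shown, each the first gene with a window in its role, for 6 of the 9 roles. Motif matches on either strand are in capitals. A match on the opposite strand appears as its reverse complement.
Ccnb1, chr13:100786437-100786736, minus strand: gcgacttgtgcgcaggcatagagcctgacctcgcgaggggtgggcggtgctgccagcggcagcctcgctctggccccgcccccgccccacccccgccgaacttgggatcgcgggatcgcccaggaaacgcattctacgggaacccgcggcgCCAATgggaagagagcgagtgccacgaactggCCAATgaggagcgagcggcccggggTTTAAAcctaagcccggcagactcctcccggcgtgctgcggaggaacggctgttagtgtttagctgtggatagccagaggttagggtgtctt
Cdc20, chr4:118437294-118437593, minus strand: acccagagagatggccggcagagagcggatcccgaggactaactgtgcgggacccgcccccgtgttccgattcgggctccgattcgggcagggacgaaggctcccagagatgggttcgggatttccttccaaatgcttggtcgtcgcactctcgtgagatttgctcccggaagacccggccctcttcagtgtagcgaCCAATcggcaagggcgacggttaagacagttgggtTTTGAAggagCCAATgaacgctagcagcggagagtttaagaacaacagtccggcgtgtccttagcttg
Birc5, chr11:117848987-117849286, plus strand: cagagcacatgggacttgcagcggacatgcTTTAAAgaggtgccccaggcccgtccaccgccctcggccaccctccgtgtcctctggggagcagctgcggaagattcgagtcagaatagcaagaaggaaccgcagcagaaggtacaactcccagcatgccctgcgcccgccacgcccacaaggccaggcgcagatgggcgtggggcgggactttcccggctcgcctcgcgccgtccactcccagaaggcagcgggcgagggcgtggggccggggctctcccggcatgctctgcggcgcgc
Cenpa, chr5:30666636-30666935, plus strand: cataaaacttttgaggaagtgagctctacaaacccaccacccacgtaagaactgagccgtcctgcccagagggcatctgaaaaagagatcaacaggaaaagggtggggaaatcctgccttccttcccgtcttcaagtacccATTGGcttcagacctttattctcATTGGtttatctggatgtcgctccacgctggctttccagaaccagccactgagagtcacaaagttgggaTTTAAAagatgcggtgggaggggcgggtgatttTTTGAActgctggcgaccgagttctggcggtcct
Kif11, chr19:37376132-37376431, plus strand: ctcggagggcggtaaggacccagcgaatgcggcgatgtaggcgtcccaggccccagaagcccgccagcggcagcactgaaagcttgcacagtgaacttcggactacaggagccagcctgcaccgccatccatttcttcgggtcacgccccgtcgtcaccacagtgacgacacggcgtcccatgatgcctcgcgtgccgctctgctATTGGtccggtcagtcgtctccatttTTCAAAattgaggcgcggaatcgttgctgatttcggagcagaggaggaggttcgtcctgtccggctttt
Ect2, chr3:27153829-27154128, minus strand: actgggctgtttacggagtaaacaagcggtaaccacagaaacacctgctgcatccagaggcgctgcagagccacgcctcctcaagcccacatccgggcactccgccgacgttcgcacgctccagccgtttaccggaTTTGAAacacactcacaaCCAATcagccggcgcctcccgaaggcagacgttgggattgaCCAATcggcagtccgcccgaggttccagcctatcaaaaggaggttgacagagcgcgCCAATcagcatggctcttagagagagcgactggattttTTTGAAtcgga
Ccnb1, Cdc20, Cenpa and Kif11 show the common arrangement, in which 1 or 2 CCAAT boxes lie upstream of the start and a CHR form lies near the start. In Birc5 this window held a single distant TTTAAA. Ect2 held 3 CCAAT boxes and 2 CHR matches, although its level did not follow that of the other genes.

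**Figure D1:**
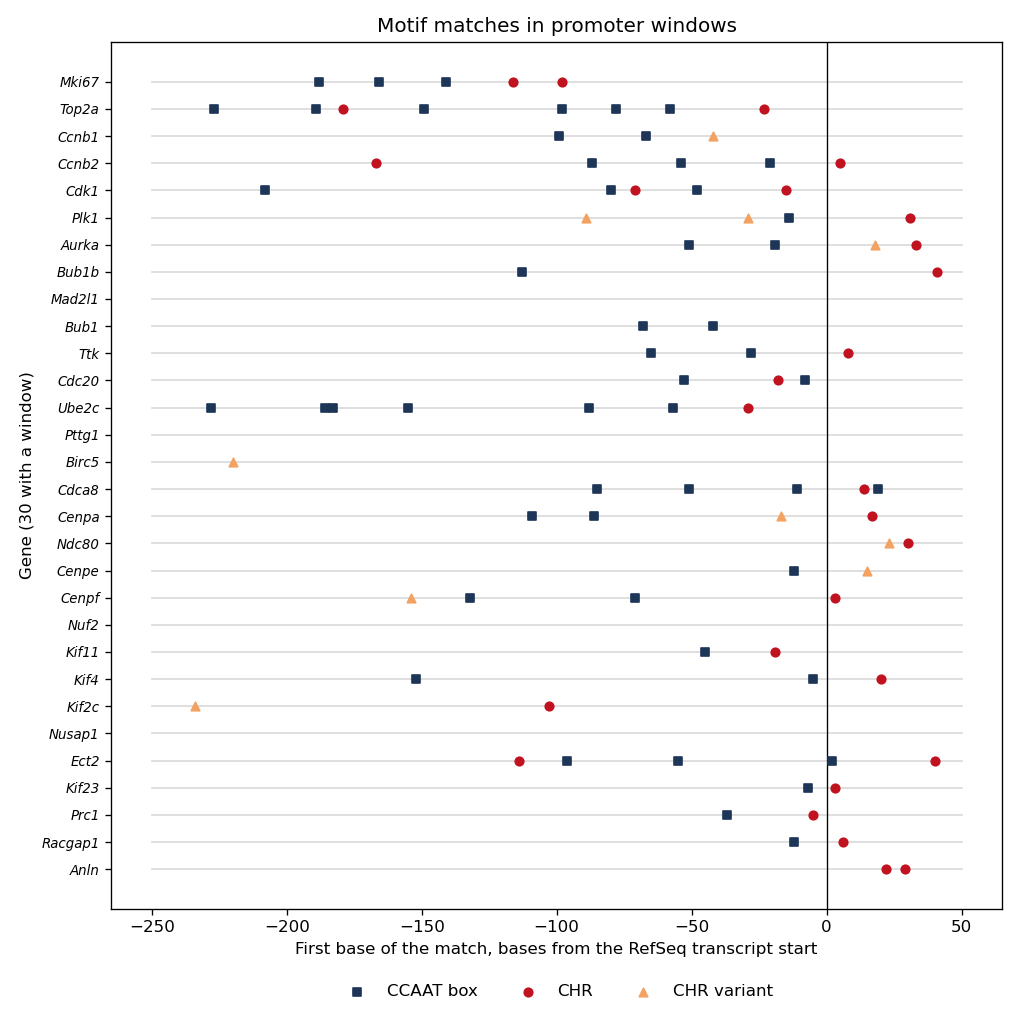
Position of each motif match in the promoter windows of the 30 genes with a window. The x axis gives the first base of a match in bases from the RefSeq transcript start, each line spans the 300-base window, squares mark CCAAT, circles the CHR and triangles its variant. Matches are densest close to the start, and Mad2l1, Pttg1, Nuf2 and Nusap1 have no mark.

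Total counts ranged from 7756762 to 27386184 per library, and levels are given as CPM, that is counts scaled to a common library total with edgeR's TMM factors, where 3 counts (the most that a count of 0 allows, counting error only) correspond to 0.105 to 0.405 CPM. Replicates differed far beyond counting error (chi-square per degree of freedom 62.2 to 644 over 12 pairs). Defining MK genes were present in every library but much lower in spleen. The summed level of 12 MK and platelet genes was 11913 to 48708 CPM in BM and 1234 to 3587 CPM in spleen. Immunoglobulin and T cell receptor segments took 1.04% to 4.23% of the counts in BM and 13.0% to 30.1% in spleen. The third spleen sepsis library stood apart from its replicates with the lowest of these spleen shares and 7465 CPM of the plasma cell list. Itga2b was at 320.5 CPM in that library (6.43 and 19.2 CPM in its replicates). The sum of the 12 MK and platelet genes differed less, with 2328 CPM beside 1908 and 1234 CPM.

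Mitosis and spindle transcripts were abundant in BM MKs after either treatment and lower in splenic MKs. Their summed level was 3479, 3088 and 4261 CPM in the BM saline libraries and 3660.1, 3199.7 and 3784 CPM in the BM sepsis libraries. It was 337, 742 and 1663 CPM in the spleen saline libraries and 2361, 1724 and 1806 CPM in the spleen sepsis libraries. Every BM library lay above every splenic library. The mean was 3.95-fold higher in BM than in spleen after saline and 1.81-fold higher after sepsis. The BM libraries held 29 to 34 of the 36 genes at 10 CPM or more, and the splenic libraries 6 to 28, lowest in the first spleen saline library, where 12 genes had 3 or fewer counts. In these bulk samples, fewer dividing cells, less mitotic RNA per cell and a larger share of other RNA, such as the lymphoid RNA given below, cannot be told apart.

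**Figure D2:**
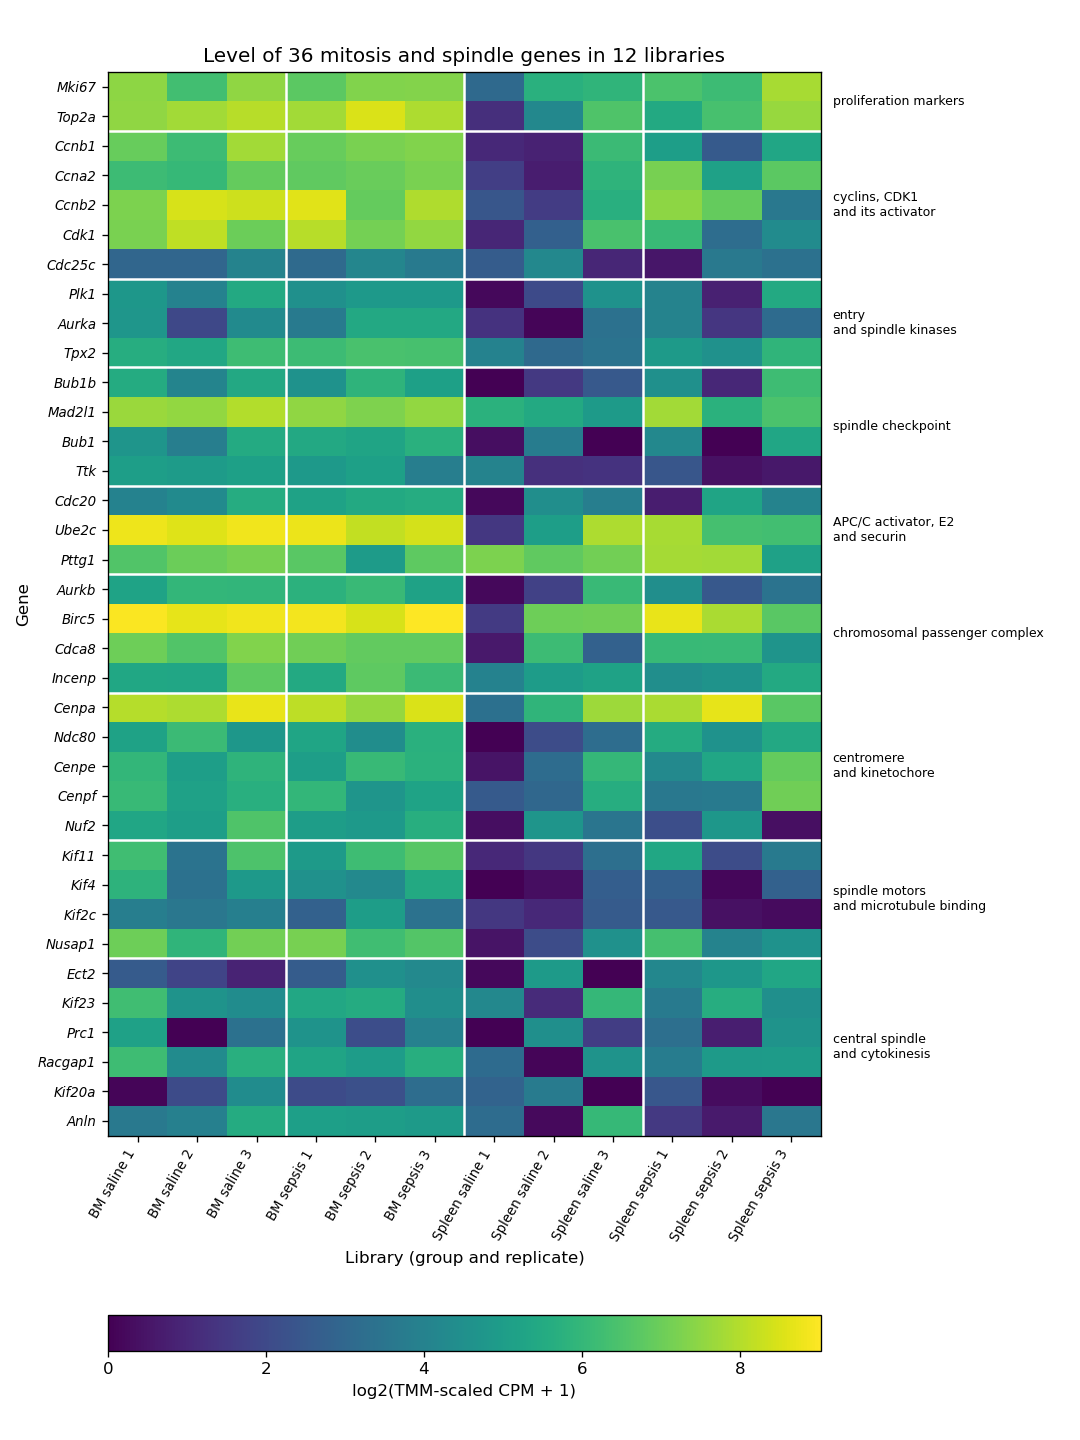
Level of each of the 36 genes (rows, grouped by role) in each of the 12 libraries (columns), as log2(TMM-scaled CPM + 1) on a color scale from 0 (dark) to the highest value (yellow). BM columns are evenly bright for most genes, the first spleen saline library is the darkest column, and Pttg1, Ect2, Prc1 and Kif20a do not follow the pattern.

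The first question was how the genes differed between BM and splenic MKs. All 36 passed the expression filter, which left 20263 genes. The fold change was positive, that is higher in BM, for 33 of the 36 after saline, 31 after sepsis and 34 on the average over treatments, where 43.5%, 45.1% and 46.9% of all genes tested were positive. The median log2 fold change of the 36 was 2.18 after saline, 1.19 after sepsis and 1.62 on average, beside -0.28, -0.18 and -0.13 over all genes tested. Few genes passed the test on their own. In edgeR's quasi-likelihood test with Benjamini-Hochberg adjustment over all genes, 0 of the 36 were called (adjusted p under 0.05) after saline, where 1.25% of all genes were called. After sepsis 0 were called (background 1.78%). On the average over treatments 6 of the 36 were called, all higher in BM (background 2.07% of genes called higher in BM).

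At an unadjusted p under 0.05 with higher levels in BM there were 16 of the 36 after saline (background 6.15%), 3 after sepsis (5.84%) and 19 on average (8.85%), and 0 were lower in BM at that level in any of these comparisons. All 3 BM libraries lay above all 3 splenic libraries for 22 of the 36 after saline (background 11.3%) and for 14 after sepsis (11.0%). All 6 BM libraries lay above all 6 splenic libraries for 7 genes, Ccnb1, Cdk1, Ube2c, Cdca8, Nuf2, Kif4 and Kif2c (background 2.56%). The called genes depended on the tool. DESeq2 gave an adjusted p to 35 of the 36. It called 3 after saline (Kif11, Tpx2 and Mad2l1), 1 after sepsis (Ttk) and 5 on average (Kif11, Tpx2, Kif2c, Kif4 and Ttk). All were higher in BM, where DESeq2 called 2.40%, 3.07% and 4.33% of all genes higher. Its count after sepsis was close to that background. Limma-voom called 0, 0 and 13, all higher in BM (background 0.217%, 1.16% and 4.03%). Without the third spleen saline library, the one with the highest mitotic levels of its group, 11 were called after saline and 11 on average, all higher in BM (as were 0.984% and 2.35% of all genes in that fit). Each fit with a library left out was filtered and scaled anew. Without that library 24808 genes were kept, beside 20263 with all libraries, so the genes tested changed as well. Over the 12 fits that leave out 1 library, 0 to 11 were called after saline, 0 after sepsis and 4 to 11 on average, lowest without the first BM saline, the third BM saline or the second spleen saline library.

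**Figure D3:**
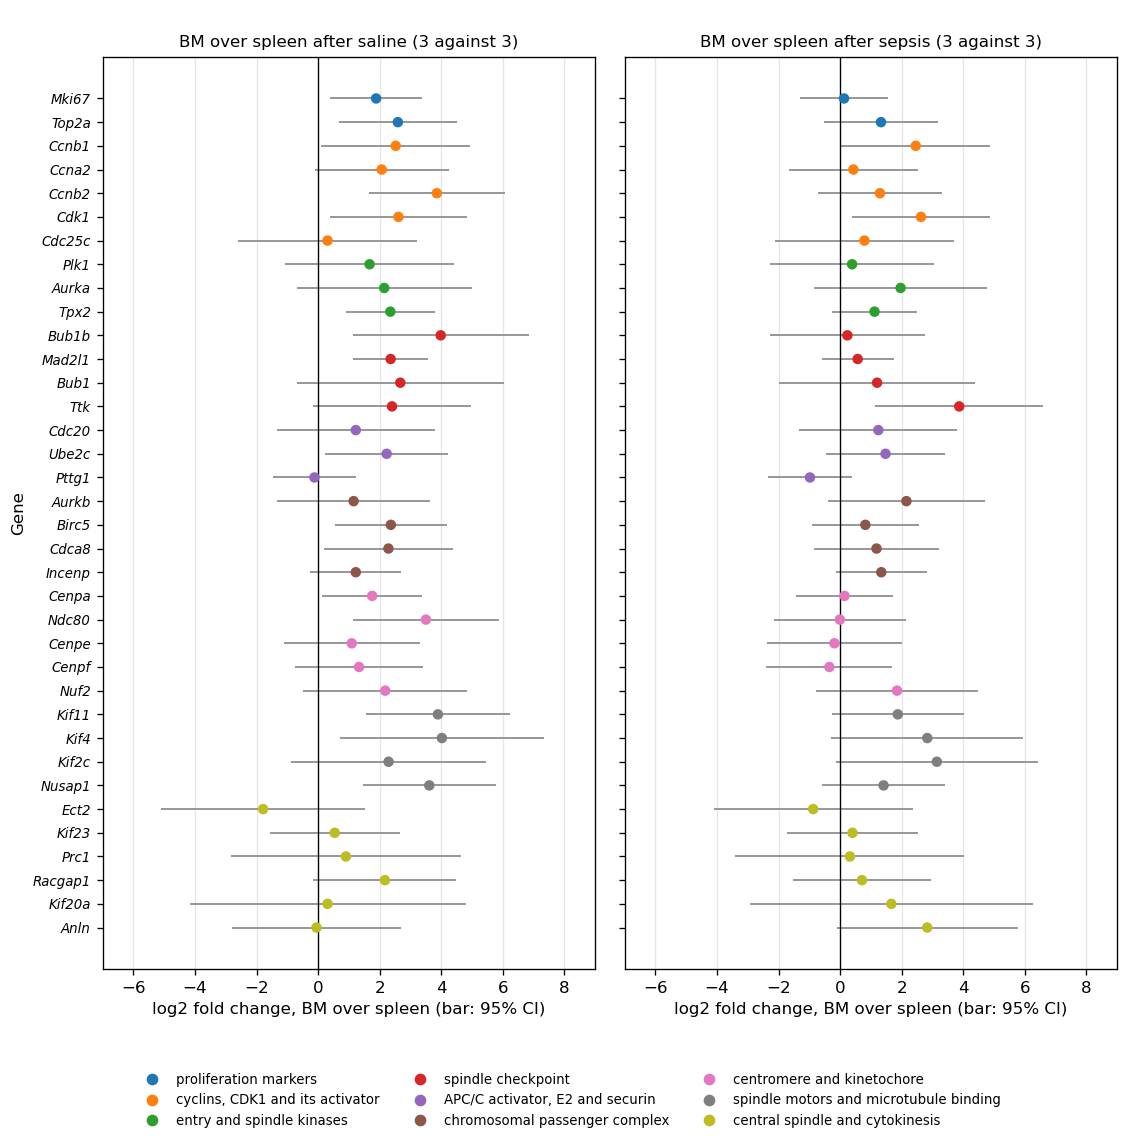
Log2 fold change of BM over spleen for each gene (rows) after saline (left) and after sepsis (right), from edgeR with 3 against 3 libraries. Points are estimates colored by role, bars are 95% confidence intervals, and the vertical line is no difference. The interval lies above 0 for 16 genes after saline and for 3 after sepsis, and below 0 for none.

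Mki67, which encodes the proliferation antigen Ki-67 that coats mitotic chromosomes (ENSMUSG00000031004, chromosome 7, 135689784 to 135716361), had 181, 78.2 and 183 CPM in the BM saline libraries, 108, 157 and 161 CPM in the BM sepsis libraries, 7.43, 52.6 and 59.6 CPM in the spleen saline libraries and 87, 71.4 and 232 CPM in the spleen sepsis libraries. The saline groups did not overlap, whereas the third spleen sepsis library was the highest of all 12. Its log2 fold change of BM over spleen in edgeR was 1.89 (SE 0.71, adjusted p = 0.301) after saline, 0.13 (SE 0.69, adjusted p = 0.978) after sepsis and 1.01 (SE 0.49, adjusted p = 0.270) averaged over treatments. Top2a, the topoisomerase that untangles sister chromatids (ENSMUSG00000020914, chromosome 11, 98992943 to 99024189), had 184, 219 and 263 CPM in the BM saline libraries, 217, 365 and 238 CPM in the BM sepsis libraries, 1.35, 17.7 and 91.4 CPM in the spleen saline libraries and 44.1, 83.8 and 199 CPM in the spleen sepsis libraries. BM lay above spleen within each treatment. Its log2 fold change in edgeR was 2.59 (SE 0.92, adjusted p = 0.253) after saline, 1.33 (SE 0.88, adjusted p = 0.505) after sepsis and 1.96 (SE 0.63, adjusted p = 0.0881) averaged over treatments.

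Among cyclins, CDK1 and its activator, all 5 fold changes were positive after saline (0.31 to 3.86). Ccnb2, cyclin B2 (ENSMUSG00000032218, chromosome 9, 70407692 to 70421547), had 153, 353 and 323 CPM in the BM saline libraries, 391, 118 and 246 CPM in the BM sepsis libraries, 4.32, 2.06 and 50.7 CPM in the spleen saline libraries and 178, 119 and 11.2 CPM in the spleen sepsis libraries. All BM levels were above all spleen saline levels, but 2 of the spleen sepsis libraries reached the lowest BM levels. Its log2 fold change in edgeR was 3.86 (SE 1.06, adjusted p = 0.0913) after saline, 1.29 (SE 0.96, adjusted p = 0.580) after sepsis and 2.58 (SE 0.71, adjusted p = 0.0402) averaged over treatments, and it was called in 19 of 21 alternative fits of the average. Ccnb1, the cyclin B partner of CDK1 at mitotic entry (ENSMUSG00000041431, chromosome 13, 100778650 to 100786570), had 121, 72.1 and 216 CPM in the BM saline libraries, 119, 148 and 157 CPM in the BM sepsis libraries, 1.08, 0.825 and 69.4 CPM in the spleen saline libraries and 32.7, 4.82 and 39.8 CPM in the spleen sepsis libraries. No splenic library reached BM. Its log2 fold change in edgeR was 2.52 (SE 1.16, adjusted p = 0.396) after saline, 2.45 (SE 1.16, adjusted p = 0.383) after sepsis and 2.49 (SE 0.82, adjusted p = 0.0956) averaged over treatments. Ccna2, cyclin A2 (ENSMUSG00000027715, chromosome 3, 36564865 to 36572150), had 71.7, 64.7 and 119 CPM in the BM saline libraries, 112, 125 and 149 CPM in the BM sepsis libraries, 2.16, 0.660 and 58.1 CPM in the spleen saline libraries and 145, 35.3 and 106 CPM in the spleen sepsis libraries. In the first and the third spleen sepsis library it was within the BM range. The log2 fold change of Ccna2 in edgeR was 2.07 (SE 1.04, adjusted p = 0.407) after saline, 0.43 (SE 1.0, adjusted p = 0.924) after sepsis and 1.25 (SE 0.72, adjusted p = 0.349) averaged over treatments. Cdk1 did not overlap between tissues, with 128 to 287 CPM in BM and 0.946 to 85.4 CPM in spleen, an average log2 difference in edgeR of 2.62 (SE 0.75, adjusted p = 0.0527). Cdc25c, the phosphatase that activates CDK1, was low throughout (6.96 to 16.8 CPM in BM, 0.463 to 17.5 CPM in spleen). Ccnb1 and Ccnb2 each have an annotated pseudogene that could share reads.

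The entry and spindle kinases were moderate in level. Tpx2, the microtubule protein that activates Aurora A (ENSMUSG00000027469, chromosome 2, 152847964 to 152895321), had 48, 41.2 and 73.9 CPM in the BM saline libraries, 72.2, 84.7 and 83.8 CPM in the BM sepsis libraries, 14.9, 7.43 and 9.76 CPM in the spleen saline libraries and 29.3, 23 and 58.7 CPM in the spleen sepsis libraries. The tissues did not overlap within either treatment. In edgeR the log2 difference of Tpx2 was 2.35 (SE 0.69, adjusted p = 0.125) after saline, 1.12 (SE 0.66, adjusted p = 0.444) after sepsis and 1.73 (SE 0.48, adjusted p = 0.0408) averaged over treatments. Tpx2 was called in only 8 of 21 alternative fits of the average. Plk1, polo-like kinase 1 (ENSMUSG00000030867, chromosome 7, 122159439 to 122169873), had 26.1, 15.1 and 43.3 CPM in the BM saline libraries, 22.2, 28.2 and 28.5 CPM in the BM sepsis libraries, 0.135, 3.05 and 23.3 CPM in the spleen saline libraries and 15.5, 0.784 and 44.1 CPM in the spleen sepsis libraries. Its splenic levels ranged from the floor to the highest of all 12. The log2 fold change of Plk1 in edgeR was 1.67 (SE 1.31, adjusted p = 0.649) after saline, 0.39 (SE 1.28, adjusted p = 0.955) after sepsis and 1.03 (SE 0.91, adjusted p = 0.556) averaged over treatments. Aurka, the centrosomal Aurora A kinase (ENSMUSG00000027496, chromosome 2, 172356190 to 172370535), had 25.9, 2.88 and 19.2 CPM in the BM saline libraries, 11.8, 42.9 and 43 CPM in the BM sepsis libraries, 1.49, 0.0825 and 9.23 CPM in the spleen saline libraries and 15.4, 1.68 and 7.96 CPM in the spleen sepsis libraries. The second BM saline library fell among those of spleen, and the first BM sepsis library lay below the first spleen sepsis library. The log2 fold change of Aurka in edgeR was 2.15 (SE 1.36, adjusted p = 0.514) after saline, 1.96 (SE 1.35, adjusted p = 0.530) after sepsis and 2.06 (SE 0.96, adjusted p = 0.245) averaged over treatments.

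In the spindle checkpoint all 4 genes were separated between tissues after saline, beside 11.3% of all genes. Mad2l1, the checkpoint protein MAD2 that restrains Cdc20 (ENSMUSG00000029910, chromosome 6, 66535390 to 66547220), had 204, 188 and 254 CPM in the BM saline libraries, 186, 156 and 186 CPM in the BM sepsis libraries, 53.1, 43.5 and 29.6 CPM in the spleen saline libraries and 216, 53.1 and 86.9 CPM in the spleen sepsis libraries. Its BM levels varied little, and the first spleen sepsis library was as high as BM. In edgeR the log2 fold change of Mad2l1 was 2.36 (SE 0.59, adjusted p = 0.0550) after saline, 0.57 (SE 0.56, adjusted p = 0.724) after sepsis and 1.46 (SE 0.40, adjusted p = 0.0401) averaged over treatments. Mad2l1 was called in only 9 of 21 alternative fits of the average. Ttk, the kinase MPS1 that starts checkpoint signaling (ENSMUSG00000038379, chromosome 9, 83834689 to 83872389), had 32.5, 30.3 and 34.5 CPM in the BM saline libraries, 28.8, 34.1 and 13.6 CPM in the BM sepsis libraries, 15.5, 1.4 and 1.5 CPM in the spleen saline libraries and 4.32, 0.336 and 0.485 CPM in the spleen sepsis libraries. Of the splenic libraries, the first after saline passed the lowest BM level, and the other 5 were at 4.32 CPM or less. In edgeR the log2 fold change of Ttk was 2.4 (SE 1.22, adjusted p = 0.409) after saline, 3.87 (SE 1.3, adjusted p = 0.207) after sepsis and 3.13 (SE 0.89, adjusted p = 0.0491) averaged over treatments. Ttk was called in only 10 of 21 alternative fits of the average. Bub1b, the checkpoint protein BUBR1 (ENSMUSG00000040084, chromosome 2, 118598211 to 118641591), had 46.4, 15.7 and 42.2 CPM in the BM saline libraries, 23.3, 57.6 and 33.8 CPM in the BM sepsis libraries, 0, 1.82 and 4.72 CPM in the spleen saline libraries and 21.9, 1.01 and 74.5 CPM in the spleen sepsis libraries. The third spleen sepsis library exceeded BM. In edgeR the log2 fold change of Bub1b was 3.98 (SE 1.37, adjusted p = 0.231) after saline, 0.23 (SE 1.21, adjusted p = 0.975) after sepsis and 2.11 (SE 0.89, adjusted p = 0.200) averaged over treatments. Bub1, the kinase that recruits checkpoint proteins, had 13.6 to 51.6 CPM in BM and 0 to 39.7 CPM in spleen, where 3 libraries had 3 or fewer counts.

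The APC/C activator, the ubiquitin-conjugating enzyme and securin did not behave alike. Ube2c, the enzyme that starts ubiquitin chains for the APC/C (ENSMUSG00000001403, chromosome 2, 164769898 to 164778822), had 444, 381 and 459.6 CPM in the BM saline libraries, 436, 294 and 347 CPM in the BM sepsis libraries, 1.76, 32.7 and 239.9 CPM in the spleen saline libraries and 228, 81.8 and 77.3 CPM in the spleen sepsis libraries. All BM levels lay above all spleen levels. For Ube2c the log2 fold change in edgeR was 2.23 (SE 0.95, adjusted p = 0.380) after saline, 1.47 (SE 0.93, adjusted p = 0.475) after sepsis and 1.85 (SE 0.66, adjusted p = 0.123) averaged over treatments. Part of its exon length (22.8%) overlaps the antisense gene Tnnc2. Cdc20, the APC/C activator that the checkpoint blocks (ENSMUSG00000006398, chromosome 4, 118432901 to 118437352), had 15, 19.2 and 47.5 CPM in the BM saline libraries, 36.2, 44.1 and 47.6 CPM in the BM sepsis libraries, 0.135, 21.3 and 13.4 CPM in the spleen saline libraries and 0.668, 38.1 and 15.4 CPM in the spleen sepsis libraries. The tissues overlapped after each treatment. For Cdc20 the log2 fold change in edgeR was 1.23 (SE 1.23, adjusted p = 0.769) after saline, 1.24 (SE 1.23, adjusted p = 0.729) after sepsis and 1.23 (SE 0.87, adjusted p = 0.454) averaged over treatments. Pttg1, securin, the inhibitor of separase (ENSMUSG00000020415, chromosome 11, 43420250 to 43426251), had 95.6, 128 and 145 CPM in the BM saline libraries, 104, 30.3 and 108 CPM in the BM sepsis libraries, 151, 112 and 137 CPM in the spleen saline libraries and 226, 216 and 35.3 CPM in the spleen sepsis libraries. Its levels overlapped between the tissues after both treatments. For Pttg1 the log2 fold change in edgeR was -0.12 (SE 0.65, adjusted p = 0.975) after saline, -0.98 (SE 0.66, adjusted p = 0.513) after sepsis and -0.55 (SE 0.46, adjusted p = 0.534) averaged over treatments, which did not pass the test. Per kilobase of exon, Pttg1 ranked the first of the 36 genes in spleen (73.2 CPM per kb) and the fourth in BM (50.9 CPM per kb), where Ccnb2 was the highest (172 CPM per kb).

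The chromosomal passenger complex, Aurora B with its partners survivin (Birc5), borealin (Cdca8) and Incenp, corrects faulty attachments and later marks the central spindle. Birc5 (ENSMUSG00000017716, chromosome 11, 117849251 to 117855743) had 501, 414 and 455 CPM in the BM saline libraries, 464, 355 and 521 CPM in the BM sepsis libraries, 1.89, 130.2 and 134 CPM in the spleen saline libraries and 419.7, 236 and 104 CPM in the spleen sepsis libraries. The first spleen sepsis library lay within the BM range, and all spleen saline libraries lay below it. With edgeR the log2 fold change of Birc5 was 2.36 (SE 0.87, adjusted p = 0.287) after saline, 0.82 (SE 0.83, adjusted p = 0.741) after sepsis and 1.59 (SE 0.60, adjusted p = 0.143) averaged over treatments. Aurkb (ENSMUSG00000020897, chromosome 11, 69045647 to 69051664) had 36.6, 61.2 and 61.2 CPM in the BM saline libraries, 54.4, 68.8 and 35.9 CPM in the BM sepsis libraries, 0.135, 2.39 and 68.9 CPM in the spleen saline libraries and 21.2, 4.59 and 9.9 CPM in the spleen sepsis libraries. The third spleen saline library was the highest of all 12, just above the second BM sepsis library. With edgeR the log2 fold change of Aurkb was 1.15 (SE 1.19, adjusted p = 0.779) after saline, 2.15 (SE 1.22, adjusted p = 0.424) after sepsis and 1.65 (SE 0.85, adjusted p = 0.294) averaged over treatments. Cdca8 did not overlap between tissues (95.5 to 159 CPM in BM, 0.541 to 71.9 CPM in spleen), and Incenp ran from 39.5 to 109.8 CPM in BM and from 15.1 to 43.7 CPM in spleen.

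Of 5 centromere and kinetochore genes, 3 were separated between the tissues after saline (Cenpa, Ndc80 and Nuf2) and 1 after sepsis (Nuf2), beside 11.3% and 11.0% of all genes. Cenpa, the histone H3 variant that marks centromeres (ENSMUSG00000029177, chromosome 5, 30666777 to 30674830), had 262, 240.1 and 426 CPM in the BM saline libraries, 276, 195 and 361 CPM in the BM sepsis libraries, 9.19, 58.6 and 207 CPM in the spleen saline libraries and 236, 414 and 105 CPM in the spleen sepsis libraries. The second spleen sepsis library was among the highest. With edgeR the log2 fold change of Cenpa was 1.76 (SE 0.77, adjusted p = 0.396) after saline, 0.14 (SE 0.75, adjusted p = 0.976) after sepsis and 0.95 (SE 0.54, adjusted p = 0.339) averaged over treatments. Ndc80, which binds kinetochores to microtubules (ENSMUSG00000024056, chromosome 17, 71496100 to 71526857), had 35.9, 69.5 and 26.4 CPM in the BM saline libraries, 38.2, 20.3 and 52.5 CPM in the BM sepsis libraries, 0, 3.3 and 8.26 CPM in the spleen saline libraries and 45.9, 23.3 and 42.6 CPM in the spleen sepsis libraries. The 3 spleen sepsis levels lay within the BM range, and the 3 spleen saline levels below it. With edgeR the log2 fold change of Ndc80 was 3.5 (SE 1.14, adjusted p = 0.184) after saline, -0.0098 (SE 1.03, adjusted p = 1.0) after sepsis and 1.75 (SE 0.75, adjusted p = 0.207) averaged over treatments. The kinetochore motor Cenpe and the large kinetochore protein Cenpf were highest in the third spleen sepsis library (117 and 135 CPM) and had fold changes of BM over spleen after sepsis of -0.19 and -0.35 on the log2 scale, which without that library were 0.86 and 1.84. Nuf2, the partner of Ndc80, had instead 28.1 to 91.1 CPM in BM and at most 26.6 CPM in spleen, with 0.291 CPM in that same library.

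The spindle motors and the microtubule binding protein Nusap1 had the largest tissue differences by role, with a median log2 fold change of 3.75 after saline, and all 4 were separated between the saline groups (11.3% of all genes). Kif11, the kinesin that pushes spindle poles apart (ENSMUSG00000012443, chromosome 19, 37376403 to 37421859), had 76, 9.74 and 88.8 CPM in the BM saline libraries, 29.1, 74.4 and 102 CPM in the BM sepsis libraries, 1.08, 1.73 and 8.9 CPM in the spleen saline libraries and 40.5, 3.25 and 12.1 CPM in the spleen sepsis libraries. The second BM saline library was low and the first spleen sepsis library high. On the log2 scale Kif11 differed in edgeR by 3.89 (SE 1.12, adjusted p = 0.116) after saline, 1.87 (SE 1.03, adjusted p = 0.412) after sepsis and 2.88 (SE 0.76, adjusted p = 0.0309) averaged over treatments, and it was called in 20 of 21 alternative fits of the average. Nusap1, which bundles spindle microtubules (ENSMUSG00000027306, chromosome 2, 119618298 to 119651244), had 129, 58.7 and 135 CPM in the BM saline libraries, 144, 75.9 and 96.9 CPM in the BM sepsis libraries, 0.405, 3.3 and 22.6 CPM in the spleen saline libraries and 80.9, 15.2 and 23.1 CPM in the spleen sepsis libraries. Only the first spleen sepsis library reached BM levels. On the log2 scale Nusap1 differed in edgeR by 3.61 (SE 1.03, adjusted p = 0.112) after saline, 1.41 (SE 0.95, adjusted p = 0.516) after sepsis and 2.51 (SE 0.70, adjusted p = 0.0421) averaged over treatments, and it was called in 17 of 21 alternative fits of the average. Kif4, the chromosome-arm kinesin (ENSMUSG00000034311, chromosome X, 100625737 to 100727214), had 56.1, 9.44 and 27.9 CPM in the BM saline libraries, 22.7, 17.9 and 43.7 CPM in the BM sepsis libraries, 0, 0.248 and 5.47 CPM in the spleen saline libraries and 5.76, 0.112 and 5.92 CPM in the spleen sepsis libraries. No splenic library reached BM, and 3 splenic libraries had 3 or fewer counts. On the log2 scale Kif4 differed in edgeR by 4.02 (SE 1.58, adjusted p = 0.329) after saline, 2.83 (SE 1.49, adjusted p = 0.399) after sepsis and 3.43 (SE 1.09, adjusted p = 0.0816) averaged over treatments. It has an annotated pseudogene, and 15.1% of its exon length overlaps an antisense gene. Kif2c, the microtubule-shortening kinesin of centromeres, had 5.93 to 31.5 CPM in BM and 0.194 to 5.04 CPM in spleen.

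Of 6 central spindle and cytokinesis genes, 0 were separated between the tissues after saline and 2 after sepsis (Racgap1 and Anln), beside 11.3% and 11.0% of all genes. Their median log2 fold change after saline, 0.42, was the lowest of the 9 roles. Ect2, the RhoA exchange factor of the cleavage furrow (ENSMUSG00000027699, chromosome 3, 27097222 to 27153878), had 5.07, 2.58 and 0.861 CPM in the BM saline libraries, 5.15, 22.3 and 17.9 CPM in the BM sepsis libraries, 0.135, 29.3 and 0 CPM in the spleen saline libraries and 17.1, 26.6 and 39.6 CPM in the spleen sepsis libraries. It was low in every BM saline library, and its spleen saline level came from the second library alone. In edgeR the log2 difference of Ect2 was -1.79 (SE 1.59, adjusted p = 0.715) after saline, -0.88 (SE 1.54, adjusted p = 0.888) after sepsis and -1.33 (SE 1.1, adjusted p = 0.529) averaged over treatments, and without that library the value after saline was 5.30, so its direction rested on 1 library. Kif23, the kinesin of centralspindlin (ENSMUSG00000032254, chromosome 9, 61915905 to 61946774), had 76.2, 23.8 and 19.9 CPM in the BM saline libraries, 41.6, 45.8 and 21.1 CPM in the BM sepsis libraries, 17.7, 1.16 and 63.6 CPM in the spleen saline libraries and 12.1, 48.9 and 21.4 CPM in the spleen sepsis libraries. The tissues overlapped after both treatments. In edgeR the log2 difference of Kif23 was 0.54 (SE 1.01, adjusted p = 0.904) after saline, 0.40 (SE 1.01, adjusted p = 0.932) after sepsis and 0.47 (SE 0.71, adjusted p = 0.758) averaged over treatments. Racgap1, the other part of centralspindlin, had 19.4 to 73.8 CPM in BM and 0.0825 to 29.9 CPM in spleen. Prc1, which bundles central spindle microtubules, ran from 0 to 35.1 CPM in BM and from 0 to 24.1 CPM in spleen. Anln, the actin-binding protein anillin, had 11.6 to 45.4 CPM in BM but 65.8 CPM in the third spleen saline library, and its log2 fold change was -0.051 after saline (2.55 without that library) and 2.83 after sepsis. Kif20a, a kinesin of late mitosis, was at 20.0 CPM or less in every library, and 29.3% of its exon length overlaps Cdc23.

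**Figure D4:**
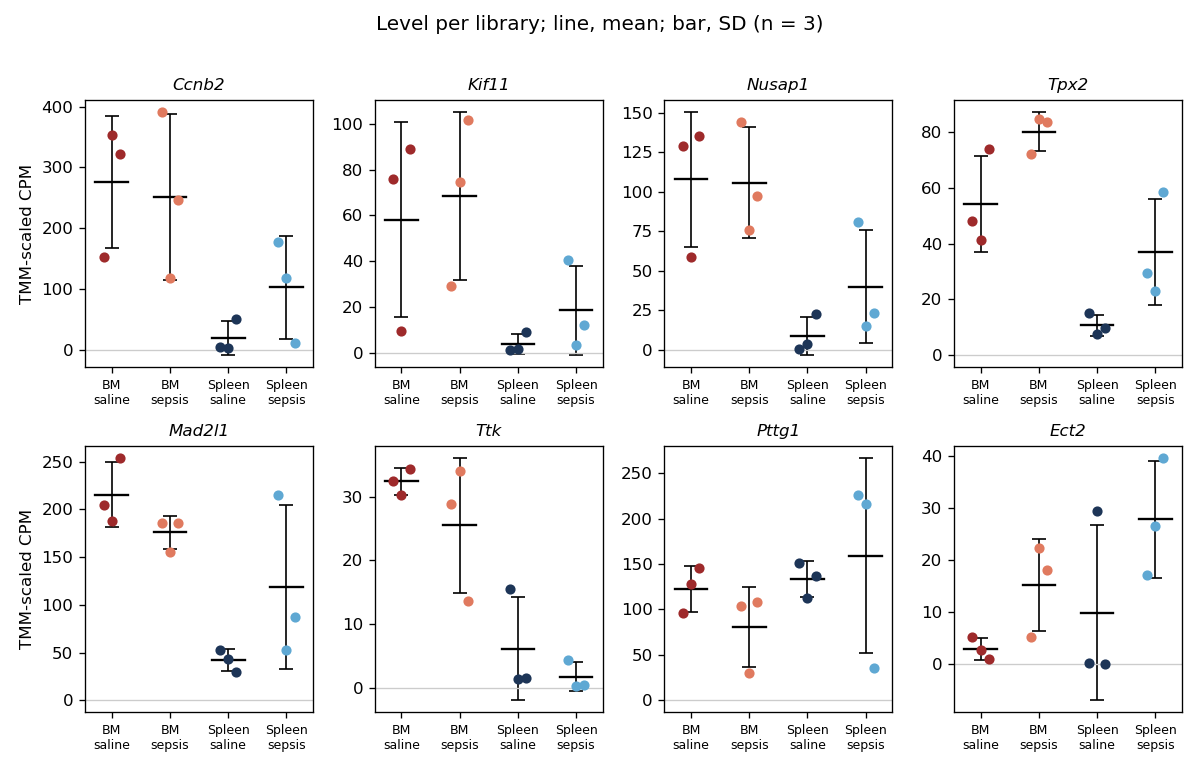
TMM-scaled CPM (y axis, linear, a separate range per panel) of 8 genes in the 4 groups, with 1 point per library, the mean as a line and the SD (n = 3) as a bar. The 6 genes called on the average over treatments (Ccnb2, Kif11, Nusap1, Tpx2, Mad2l1 and Ttk) have higher means in BM after both treatments, Pttg1 overlaps between the tissues after either treatment, and Ect2 is at 5.15 CPM or less in 4 of 6 BM libraries.

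The second question was whether sepsis changed these genes within a tissue. In BM no difference was detected. The median log2 fold change of sepsis over saline was -0.030 beside -0.075 over all genes, 17 of 36 were positive, and 0 were called in edgeR (background 0%), in DESeq2 (1.01%) or in limma-voom (0%). At an unadjusted p under 0.05, 0 of the 36 were higher after sepsis (background 0.957%), and 0 were lower. All BM sepsis libraries lay below all BM saline libraries for 1 gene, Mad2l1 (background 4.16%), and above them for 1 gene (background 4.79%), Ect2, at 5.07, 2.58 and 0.861 CPM after saline and 5.15, 22.3 and 17.9 CPM after sepsis. The 4 genes with the smallest p in BM were Ect2, Pttg1, Tpx2 and Aurka, with log2 fold changes in edgeR of 2.41 (SE 1.62, adjusted p = 1.0), -0.61 (SE 0.65, adjusted p = 1.0), 0.56 (SE 0.66, adjusted p = 1.0) and 1.03 (SE 1.31, adjusted p = 1.0). With SEs of 0.56 to 2.15, the 95% confidence intervals left room for changes in both directions, for Mad2l1 from -1.46 to 0.87, the narrowest. The summed level of neutrophil and granulocyte progenitor genes was 318 to 997 CPM in the BM saline libraries and 3446 to 22660.1 CPM in the BM sepsis libraries, and its part in the levels above was not tested.

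In spleen 28 of the 36 genes had positive fold changes of sepsis over saline, with a median of 1.18 beside -0.075 over all genes. None passed the adjusted test. edgeR called 0 of 36 (background 0.158%), as did DESeq2 (4.96%) and limma-voom (0%), and 9 were higher after sepsis at an unadjusted p under 0.05 (background 5.25%) with 0 lower. All sepsis libraries lay above all saline libraries for 3 genes, Mki67, Tpx2 and Ndc80 (background 4.95%). The smallest p values belonged to Ndc80, Bub1b, Tpx2 and Mad2l1, with log2 fold changes in edgeR of 3.27 (SE 1.12, adjusted p = 0.382), 3.89 (SE 1.36, adjusted p = 0.382), 1.79 (SE 0.68, adjusted p = 0.382) and 1.49 (SE 0.57, adjusted p = 0.382). Against this direction Ttk, Kif20a and Anln had values of -1.81, -1.97 and -2.47, which did not pass the test either, and Ttk was 0.37 without the first spleen saline library and Anln 0.10 without the third. The median rested on single libraries. It was 2.38, with 4 genes called (Nusap1, Ccna2, Ccnb2 and Ccnb1; 0.327% of all genes called higher), without the third spleen saline library, and 0.65 without the first.

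The interaction asked whether the effect of sepsis differed between tissues. The term was negative, a lower fold change of BM over spleen after sepsis than after saline, for 26 of the 36 genes, with a median of -1.15 beside -0.075 over all genes. No gene of the 36 was called by edgeR (background 0%), DESeq2 (2.31%) or limma-voom (0%), and 3 were negative at an unadjusted p under 0.05 (background 3.42%). The 4 smallest p values were those of Ndc80, Mad2l1, Bub1b and Ccnb2, with interaction terms in edgeR of -3.51 (SE 1.5, adjusted p = 0.624), -1.79 (SE 0.79, adjusted p = 0.628), -3.75 (SE 1.77, adjusted p = 0.642) and -2.56 (SE 1.36, adjusted p = 0.671). Without the third spleen saline library the median was -2.30 and Ccna2 was called, and without the third spleen sepsis library the median was -0.46. A change of the tissue difference with sepsis was therefore not detectable for any of the 36 with all libraries in the fit. The comparisons within tissues, the tissue comparisons and the interaction share the same libraries.

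Replicates spread more in spleen than in BM. The SD of log2(CPM + 1) between replicates had a median over the 36 genes of 0.68 in BM saline, 0.46 in BM sepsis, 2.17 in spleen saline and 1.30 in spleen sepsis, beside 0.69, 0.57, 1.22 and 1.05 over all genes tested. Over the 12 libraries, 25 of the 36 genes had a Pearson correlation of 0.7 or more with the mean of the other 35, led by Nusap1 (0.97) and Ccnb1 (0.94). This is a description across libraries that share their tissue difference. Within one tissue the genes followed each other less, with 10 of the 36 at 0.7 or more over the 6 BM libraries (median 0.60) and 17 over the 6 splenic libraries (median 0.66), and 7 genes were negative within BM, lowest Cdk1 (-0.74) and Ndc80 (-0.64). Over all 12 libraries Pttg1 (-0.33), Kif20a (-0.024), Ect2 (0.092) and Cdc25c (0.16) followed the others least. The first spleen saline library held the lowest of the 12 levels for 19 of the 36 genes. That library also had the fewest genes with a count (17502). Its neutrophil and granulocyte progenitor genes summed to 20992 CPM, beside 453 and 342 CPM in the other spleen saline libraries. In the spleen sepsis libraries that sum was 10399, 68.4 and 348 CPM. The part of this composition in the low mitotic levels was not tested.

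Other parts of the division program were compared with lists of genes outside the 36. Of 57 other mitotic genes, 3 were called after saline, 0 after sepsis and 12 on average, all higher in BM, with medians of 1.41, 1.15 and 1.27. The background of all genes called higher in BM was 0.523%, 0.597% and 2.07% in these comparisons, and it applies to each list in this paragraph. After saline the called genes were Ckap2 and Spag5, spindle proteins, and Spc25, a subunit of the Ndc80 complex, with log2 fold changes in edgeR of 6.08 (SE 1.42, adjusted p = 0.0382), 5.56 (SE 1.33, adjusted p = 0.0432) and 4.28 (SE 1.02, adjusted p = 0.0434). Melk, a kinase of dividing cells, called on average, was at 0.107 CPM or less in every spleen saline library and had 9.11 to 21.8 CPM in BM. Of 15 DNA replication genes, all 15 fold changes were positive after saline, after sepsis and on average (43.5%, 45.1% and 46.9% of all genes). Of these, 1 was called after saline, 0 after sepsis and 4 on average. Mcm6, a subunit of the replicative helicase, had 157 to 182 CPM in BM and 1.4 to 80.7 CPM in spleen, a log2 difference in edgeR after saline of 3.53 (SE 0.76, adjusted p = 0.0232). Of 14 genes of the wider cytokinesis machinery, 1 was called higher in BM after saline, 0 after sepsis and 1 on average, the formin Diaph3 in both (3.8 (SE 0.85, adjusted p = 0.0303) after saline). Of 19 regulators of mitotic transcription, 2 were called higher in BM after saline, Mybl2 (at 0 in all 3 spleen saline libraries) and E2f3, 0 after sepsis and 1, E2f3, on average. The defining regulator Foxm1 overlapped between tissues, with 0.696 to 16 CPM in BM and 0 to 21.3 CPM in spleen.

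Markers of other cells moved with tissue and treatment in the same libraries. B lineage genes summed to 53.2 to 267 CPM in BM and 2717 to 9711 CPM in spleen, and plasma cell genes to 1481 to 4691 CPM and 7465 to 80829 CPM. Both lists were higher in spleen, the tissue with fewer mitotic transcripts. Germinal center B cell genes reached 15.9 to 174 CPM in spleen and 10.5 to 52 CPM in BM. Basophil and mast cell genes were high in BM (2748 to 29288 CPM) and in spleen saline (3113 to 5051 CPM) and low in spleen sepsis (42.8 to 728 CPM). Erythroid genes, whose precursors divide, stayed at 146 to 275 CPM in BM and 19.9 to 295 CPM in spleen. Of these 10 genes, 9 had a positive fold change of BM over spleen after saline and 6 after sepsis. On average 8 were positive and 2 were called higher in BM (background 2.07%), although Klf1 was at 0 in the 3 BM saline libraries. Genes of megakaryocyte-erythrocyte and earlier progenitors summed to 628 to 875 CPM in BM and 116 to 1527 CPM in spleen, T and NK genes to 740.5 to 1335 and 54.3 to 3057 CPM, and macrophage and monocyte genes to 104 to 1016 and 234 to 1173 CPM. The T and NK sum overlapped between tissues after saline. After sepsis it was lower in spleen (54.3 to 554 CPM) than in BM (740.5 to 1208 CPM). The part of any of these other cells in the mitotic levels was not tested. Set against MK RNA rather than all RNA, a ratio chosen after the values were seen, the order of the tissues turned. The summed level of the 36 genes divided by that of the 12 MK and platelet genes was 0.117 to 0.171 in BM saline and 0.239 to 0.515 in spleen saline, and 0.0751 to 0.318 in BM sepsis and 0.776 to 1.4 in spleen sepsis. Divided by the 15 DNA replication genes it overlapped between tissues, from 1.99 to 3.32 in BM and from 1.33 to 3.15 in spleen.

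**Figure D5:**
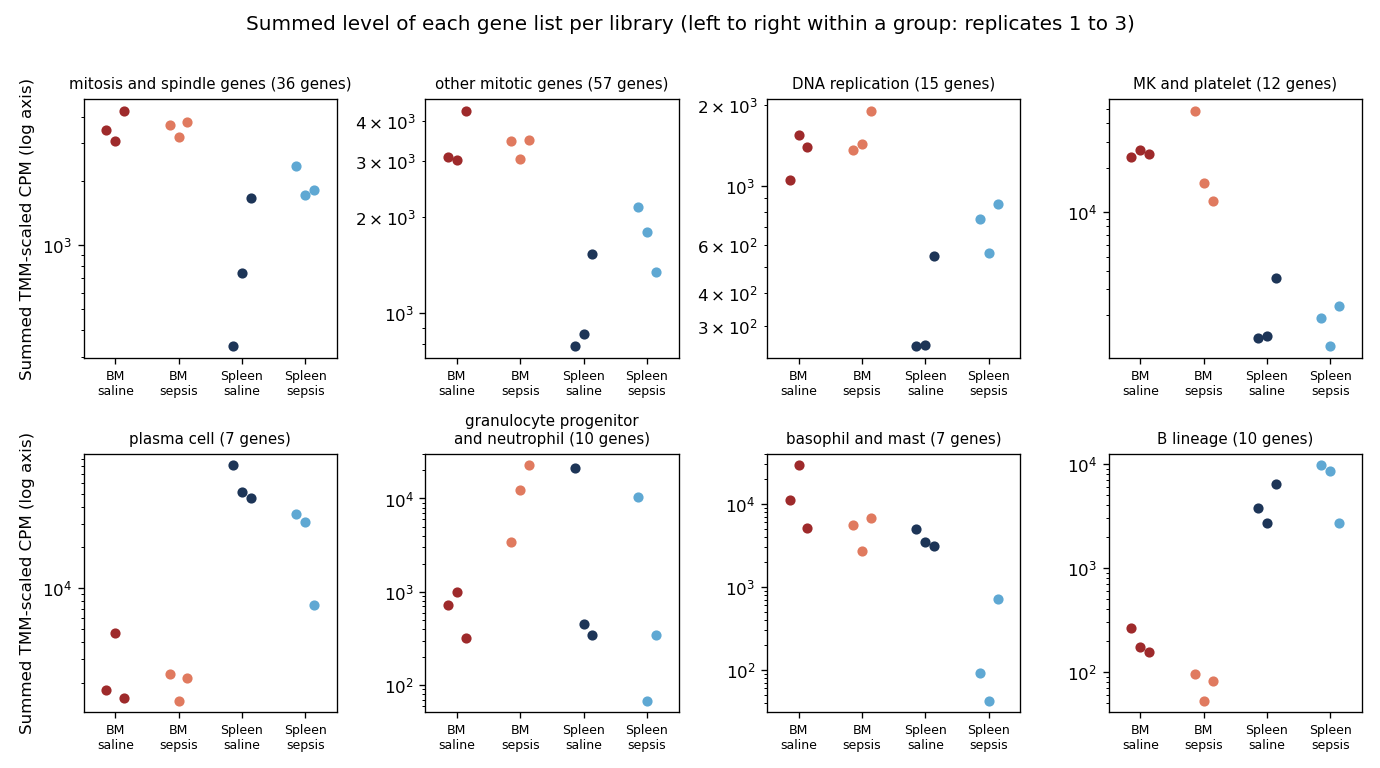
Summed TMM-scaled CPM (y axis, log scale, a separate range per panel) of 8 gene lists in each library, by group (x axis), with 1 point per library. The mitosis and spindle genes, the other mitotic genes, the DNA replication genes and the MK and platelet genes are higher in every BM library than in every splenic library, and the B lineage and plasma cell genes are lower.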

How the data were processed

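RNA-seq was performed on 12 libraries of sorted MKs in 4 groups of 3. cDNA was amplified with SMART-Seq HT and tagged with Nextera XT reagents. The authors deposited raw read counts per gene for 55536 Ensembl identifiers. The submitters' processing notes list STAR 2.7.2b, R 3.6.1, DESeq2 1.26 and GRCm38. No source used here gives the annotation or the counting options, so reads from antisense partners, pseudogenes and overlapping exons cannot be told apart. All identifiers matched GENCODE M21 (GRCm38), which gave positions and exon lengths. Groups were read from the sample titles.

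The counts were analyzed with edgeR 4.0.16 in R 4.3.3. Genes passing filterByExpr (minimum count 10) were kept (20263), TMM factors were applied, and 1 mean per group was fitted to all 12 libraries (residual degrees of freedom, 8). Contrasts were tested by quasi-likelihood F tests with Benjamini-Hochberg adjustment, and a gene was called at an adjusted p under 0.05. SE is the absolute log2 fold change divided by the square root of F. The common dispersion over all genes tested was 2.05 (biological coefficient of variation 143%), a wide spread between libraries. How far depth limited the precision for single genes was not tested. Alternatives were DESeq2 1.42.0, limma-voom 3.58.1 with quality weights, other scalings and filters, fits of the compared libraries alone, a replicate block, a table without immunoglobulin and T cell receptor segments, thinning to the smallest library, and each library left out. The average tissue contrast was also run on simulated counts with changes of known size. That run does not measure power for the treatment comparisons or the interaction. Motifs were counted by exact letters in RefSeq windows, using the window nearest to the annotated start. Python 3.11.15 (pandas 2.3.3, matplotlib 3.10.9) was used for tables and plots.

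The genes described, the comparison lists, roles, motifs and tests were chosen with earlier results of these data known. Named in full are the first 2 genes of each role, every gene called in a comparison, and the 4 genes with the smallest p in each treatment comparison and in the interaction. From other lists, genes were named if called without overlap between groups, up to 3 per list and direction, and for marker lists from the first 4 genes. Foxm1 was named outside this rule, after its values were seen.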

Additional observations from a re-analysis of the deposited data

How the results depend on the processing

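The median log2 fold change of the 36 genes kept its sign in each tissue comparison and in spleen under every alternative run, and in BM, near 0, it ran from -0.096 to 0.099, and from -0.22 to 0.16 with 1 library left out. The number called did not hold. After saline, where 0 of 36 were called, 5 were called with library size alone (1.29% of all genes then called higher in BM, beside 0.523% as reported), 8 without a filter (0.502%), 1 with 10 counts in at least 6 libraries (0.821%), 3 with DESeq2 (2.40%), 1 with only the libraries compared (0.449%) and 1 after thinning (0.654%). After sepsis 1 was called without a filter (0.491%) and 1 with DESeq2 (3.07%). On the average, where 6 were called (2.07%), 2 were called with RLE factors (1.61%), 13 with library size alone (5.38%), 11 without a filter (1.23%) and 13 with limma-voom (4.03%), which also moved the median to 3.33 after saline and 2.7 on average. With 1 library left out, calls ran from 0 to 11 after saline, 4 to 11 on average, 0 to 4 for sepsis in spleen and 0 to 1 for the interaction, each time highest without the third spleen saline library. The medians then ran from 1.80 to 3.18 after saline, 0.65 to 2.38 for sepsis in spleen and -2.30 to -0.46 for the interaction. The cause was not tested.

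Signs turned for genes whose estimate was near 0 or rested on 1 library. Ect2 became 2.37 after saline and 0.75 on average with limma-voom, and ran from -2.42 to 5.30 and from -1.63 to 2.22 with 1 library left out, positive without the second spleen saline library. After sepsis Mki67 became -0.057 with RLE factors and -0.058 with DESeq2, Cenpa -0.0040 with the replicate block, and Ndc80 0.48 with library size alone, 0.057 without a filter, 0.11 with limma-voom, 0.0054 without immunoglobulin and T cell receptor segments and 0.090 after thinning. With 1 library left out, after sepsis, Mki67 ran from -0.066 to 0.86, Plk1 from -0.074 to 1.69, Bub1b from -0.23 to 1.74, Cenpa from -0.20 to 0.76 and Ndc80 from -0.32 to 0.32, and Kif23 after saline from -0.31 to 2.10. Cenpe after sepsis became 0.24 with library size alone, 0.60 with limma-voom and 0.35 with the replicate block, and Cenpf 1.28 and 0.59 with the last 2, and with 1 library left out they ran from -0.50 to 0.86 and from -0.71 to 1.84. Anln after saline became 0.51, 1.74 and 1.03 with library size alone, limma-voom and the block, and ran from -0.91 to 2.55 with 1 library left out. For sepsis in spleen Anln then ran from -4.34 to 0.10 and Ttk from -3.86 to 0.37.

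No pairing by equal replicate number was seen (correlation of the deviations from the group means -0.057 to 0.045 over 18 pairs). With replicates this variable, these correlations cannot settle whether libraries of one number shared a mouse. A fit with the number as a block called 2 after saline (0.642% of all genes) and 9 on average (2.28%). No level can be told from 0 where a gene had 3 or fewer counts, as 18 of the 36 had in at least 1 splenic library and 2 in at least 1 BM library. The first spleen saline library had 12 such genes at 10080631 counts, and the third BM saline library 0 at 7756762. After scaling, 3 counts corresponded to 0.405 CPM in that splenic library and to 0.323 CPM in that BM library. The part of depth in these low counts was not tested.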
